A study of Mus musculus with 23 samples.

Results

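Some genes carry a block of many separate accessible regions rather than 1 or 2, and the peaks of such a block can open and close together or independently. The members described here are all peaks assigned by the authors to a gene with 12 or more peaks. They were found by counting the rows of each gene name in the deposited table of accessible regions, and they number 5873 of 51412 peaks, in 357 of 18422 genes. A member gene had a median of 15 peaks, against 2 over all genes with a peak. The marker genes of this class all met the rule, with 22 peaks for Ankrd44, 18 for Sept9 and 13 for Itga1. The longest blocks were those of Gm20388 (82 peaks), Pde4d (48), Inpp4b (47), Hivep3 (39), Arhgap26 (34) and Hdac9 (33). A filter on low counts left 5862 of the 5873 member peaks, out of 51292 in all, for testing.

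The study profiled mouse group 1 innate lymphocytes by ATAC-seq, which counts the places where a transposase can enter open chromatin, and by RNA-seq. The ATAC-seq part has 8 libraries from 50000 sorted cells each, 2 for each of 4 groups, namely liver NK, liver ILC1, spleen NK and salivary gland ILC1. The sample labels name the NK cells S1pr5eGFP+ and the ILC1 GzmC+GzmcFM+, reporter and fate-map alleles of S1pr5 and Gzmc, whereas the design text describes gates on NK1.1+NKp46+ cells that were CD49a-CD49b+ for NK and CD49a+ for ILC1. The RNA-seq part has 15 liver libraries from 6 mice, each of all the sorted cells of 1 population from 1 mouse: 4 of S1pr5eGFP+ NK cells, 4 of GzmC+GzmcFM+ cells (DP), 4 of GzmC-GzmcFM+ cells (FMSP) and 3 of GzmC-GzmcFM- cells (DN). Strain, age and treatment are not given in the sources used here, and the labels number the ATAC-seq libraries of each group as mouse replicates 1 and 2 without saying whether libraries of 1 number in different groups share an animal. Organ and cell type are crossed only in part: liver gives both cell types, spleen only NK cells and salivary gland only ILC1. In the comparison of salivary gland ILC1 with spleen NK, organ and cell type therefore cannot be told apart.

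NK cells circulate through blood and lymphoid organs, while ILC1 are relatives of NK cells that stay in tissue and are commonly recognised by CD49a, the product of Itga1. An accessible peak usually marks a promoter or an enhancer, a stretch of DNA bound by transcription factors that raises the activity of a gene from a distance. Long genes of immune cells often hold many enhancers in their introns, and different enhancers of 1 gene can be used in different cell types. Reads in a peak give its openness averaged over the cells of a library, so fewer cells with an open site and a smaller opening in each cell cannot be told apart.

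The start of a gene and its distal peaks can behave differently, and 4 start regions picked for their change are shown. Of 66 start windows examined in the named genes, 21 lay in a peak called higher in ILC1 than NK. Another 5 lay in a peak called lower, and the rest in peaks not called by the test described below. The median absolute log2 fold change of all these peaks was 0.25. Each line gives the 250 bases before a RefSeq start site, 5′ to 3′ on the strand of the gene, from the GRCm38.p6 promoter windows, and each lies inside a tested peak of the gene named. Capitals mark matches to 5 searched motifs: a T-box site GGTGTGA, a Runx site TGTGGTT, an AP-1 site TGACTCA, an ETS site CCGGAAG and a GC box GGGCGG, each on both strands with overlapping matches allowed.

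Itga1 and Sgms1 stand for starts that were more open in ILC1, Nrxn3 and Plcb4 for starts that were less open.
Itga1 (chr13:115101965-115102214, minus strand): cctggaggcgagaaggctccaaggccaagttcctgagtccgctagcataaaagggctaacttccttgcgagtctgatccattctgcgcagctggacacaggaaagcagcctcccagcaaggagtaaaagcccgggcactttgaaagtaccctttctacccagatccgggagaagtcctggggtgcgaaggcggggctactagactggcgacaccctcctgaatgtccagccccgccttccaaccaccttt
Sgms1 (chr19:32211014-32211263, minus strand): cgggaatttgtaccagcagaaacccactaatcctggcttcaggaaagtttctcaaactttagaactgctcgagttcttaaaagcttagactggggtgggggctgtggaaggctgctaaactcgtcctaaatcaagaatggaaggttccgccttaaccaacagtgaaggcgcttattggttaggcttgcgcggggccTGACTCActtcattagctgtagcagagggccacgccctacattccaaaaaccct
Nrxn3 (chr12:89812233-89812482, plus strand): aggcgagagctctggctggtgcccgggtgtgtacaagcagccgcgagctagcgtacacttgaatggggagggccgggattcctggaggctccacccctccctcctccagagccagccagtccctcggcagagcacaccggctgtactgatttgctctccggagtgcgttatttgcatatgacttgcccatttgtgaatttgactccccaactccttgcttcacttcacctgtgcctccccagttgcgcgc
Plcb4 (chr2:135659297-135659546, plus strand): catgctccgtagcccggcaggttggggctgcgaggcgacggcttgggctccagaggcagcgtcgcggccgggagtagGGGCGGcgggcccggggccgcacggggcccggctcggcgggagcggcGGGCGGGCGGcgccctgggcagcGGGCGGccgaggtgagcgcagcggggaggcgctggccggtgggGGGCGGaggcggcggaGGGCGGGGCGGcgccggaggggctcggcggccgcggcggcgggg

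The Itga1 and Nrxn3 windows hold none of the 5 motifs, the Sgms1 window holds 1 AP-1 match that lies 54 bases before the start, and the Plcb4 window holds 7 matches to the GC box. Among 32817 RefSeq windows of the same length, 3.33% hold the T-box site, 4.39% the Runx site, 4.46% the AP-1 site, 6.90% the ETS site and 32.72% the GC box. These matches describe letters only. Levels are given in CPM, counts brought to a common library total with the scaling of the test, for the 2 libraries of each group. The peak over the Itga1 start (chr13:115101045-115102305) had 13.2 and 14.0 CPM in liver NK, 22.4 and 33.7 in liver ILC1, 18.3 and 14.2 in spleen NK and 66.3 and 71.4 in salivary gland ILC1, with every ILC1 library above every NK library. The Sgms1 start peak had 13.7 and 11.6 CPM in liver NK, 31.0 and 27.3 in liver ILC1, 5.48 and 8.69 in spleen NK and 10.5 and 7.41 in salivary gland ILC1, so it was highest in liver ILC1 and low in every spleen and salivary gland library. The Nrxn3 start peak had 21.4 and 22.2 CPM in liver NK, 8.23 and 7.31 in liver ILC1, 42.6 and 29.7 in spleen NK and 24.8 and 21.9 in salivary gland ILC1, so ILC1 was below NK within liver and between salivary gland and spleen, though salivary gland ILC1 overlapped liver NK. The Plcb4 start peak had 42.7 and 50.8 CPM in liver NK, 41.0 and 50.3 in liver ILC1, 71.5 and 60.2 in spleen NK and 31.3 and 29.2 in salivary gland ILC1, where the liver groups overlapped and salivary gland ILC1 was lowest. Between both ILC1 groups and both NK groups the log2 fold changes of these start peaks were 1.57 for Itga1, 0.76 for Sgms1, -1.07 for Nrxn3 and -0.58 for Plcb4.

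Total counts in peaks ranged from 5609587 to 26944890 per ATAC-seq library, and the member peaks held 9.03 to 10.7% of them. Promoter peaks of any gene held 53.6 to 65.2% of a library's counts. Fold changes moved with peak height in several comparisons: with all peaks split into 5 equal classes by mean count, the median log2 difference went, from the lowest to the highest class, from -0.69 to 0.69 for spleen against liver NK, from -0.65 to 0.42 for salivary gland against liver ILC1, and from -0.20 to 0.26 for the liver pair. For both ILC1 against both NK it was -0.17 in the lowest class, 0.12 in the next to highest and 0.08 in the highest, and for salivary gland ILC1 against spleen NK it showed no steady trend (-0.20, -0.26, -0.08, 0.08 and -0.09). Its part in the calls below was not tested, and a scaling that follows peak height is given where it changes them. Summed peak levels of T cell markers were 94.7 to 123 CPM in ILC1 and 69.8 to 96.6 CPM in NK, and those of myeloid markers were 41.1 to 63.5 CPM in ILC1 and 64.7 to 88.0 CPM in NK, which did not overlap. Those of B cell markers were 14.6 to 31.2 CPM, those of hepatocyte markers 2.92 to 24.1 CPM (higher in the liver libraries) and those of salivary epithelium 49.7 to 65.3 CPM, against 95.1 to 274 CPM for NK markers and 86.0 to 197 CPM for ILC1 markers. The peak counted for Itga1 in the ILC1 sum covers the start of Pelo, a gene nested in Itga1, and without it the sum of the other 4 ILC1 markers was 57.5 to 65.1 CPM in NK and 120.1 to 151 CPM in ILC1. NK markers summed to 174 and 206 CPM in liver NK and 274 and 253 in spleen NK. In liver ILC1 they had 95.6 and 95.1 CPM, and in salivary gland ILC1 186 and 213, overlapping liver NK. Eomes, an NK marker, had 63.5 and 81.2 CPM in salivary gland ILC1 against 64.1 and 76.2 in liver NK. Between both ILC1 and both NK groups, the peaks of Eomes (log2 -1.06), Itga2 (-0.67) and Itgam (-0.45) were called lower. Those of the other NK markers, Klra8 (-0.15) and S1pr5 (0.25), were not called. S1pr5 is the gene whose reporter names the NK cells in the labels. Its peak had 11.6 and 7.56 CPM in liver NK and 14.4 and 11.6 in liver ILC1. Il7r, an ILC1 marker, was lowest in salivary gland ILC1 (3.90 and 2.64 CPM). No peak was assigned to Cd4, Cd8a, Cd79a, Lyz2, Ttr, Hnf4a or Aqp5. The part of other cells in the results was not tested.

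Member genes were long. Of the 357 genes, 345 matched a RefSeq gene of the same build, with a median length of 197 kb, against 21.4 kb for 15875 matched genes with any peak. Of their tested peaks, 90.3% lay inside the gene itself. By the authors' annotation 70.0% of member peaks were intronic, 17.0% were at promoters, 6.65% in exons and 6.31% intergenic, against 29.7%, 35.1%, 6.68% and 28.6% over all peaks. Chromosome 2 held 34 of the genes, chromosome 11 held 27 and chromosome 1 held 24.

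Both ILC1 groups were first compared with both NK groups, which averages the liver pair and the salivary gland to spleen pair. In the second pair organ and cell type cannot be told apart, so calls of this comparison can include differences of organ. The liver pair alone is given further below. Of the 5862 member peaks, 1784 were more open in ILC1 and 1306 less open, together 3090 or 52.7% (edgeR quasi-likelihood test, Benjamini-Hochberg adjusted p below 0.05 over all peaks, the rule for every call below). Over all peaks 44.0% were called, 21.0% higher and 23.1% lower. The 2 sets differ in peak type: intronic peaks were called in 53.4% of members and 50.7% of all peaks, promoter peaks in 46.8% and 33.6%. Exonic peaks were called in 60.8% and 48.2%, and intergenic ones in 51.9% and 48.8%. Peaks without a gene reached 53.4%. The part of peak type in the member share was not tested. The median log2 fold change was 0.09 over member peaks and -0.01 over all peaks. Membership counts peaks listed for these same libraries, so it is not independent of how open a gene was in them. Salivary gland ILC1 had the highest total counts (16058700 and 26944890). The part of this in the lean of the members was not tested. The 66 genes with exactly 12 peaks, just inside the rule, had 55.2% of 791 peaks called, and the 89 genes with 11 peaks, just outside it, had 49.2% of 978.

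Most blocks held calls of both directions. In 258 of the 357 genes at least 1 peak was called higher and another lower, in 55 genes calls were higher only, in 42 lower only, and 2 genes had no call. Among the 14961 pairs of called peaks of the same gene 69.9% shared a direction, where free mixing of the called member peaks would give 51.2%. In genes with 2 to 11 peaks 76.8% of 13194 such pairs did. Across all member peaks 26.8% of the variance of log2 fold changes lay between genes, against 32.3% in genes with 2 to 11 peaks, and the rest lay within blocks. Log CPM values of peaks of 1 gene, compared over the 8 libraries, had a median Pearson correlation of 0.20, a description over libraries that share groups and depth.

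Summed over a block, 208 of 357 genes differed, 135 higher and 73 lower in ILC1, or 58.3%, where 40.8% of all genes with a peak did (19.0% higher and 21.8% lower). A sum over many peaks holds more counts than a sum over few and is more easily called, so these shares are not matched between long and short blocks. With scaling that follows peak height the split was 122 and 106. A test within genes, which asks whether a peak departs from the other peaks of its gene, called 346 of the 357 blocks by Simes' method, against 48.3% of all genes with 2 or more tested peaks. By the gene-wise F test it called 353, against 57.6%. More peaks give such a test more chances, so these shares are not comparable between long and short blocks. In 131 genes the sum was not called although peaks were called in both directions. The median peak had the same sign as the sum in 204 of the 208 called blocks. The plot of called peaks per gene shows that blocks with calls of 1 direction only stand beside evenly split ones.

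**Figure D1:**
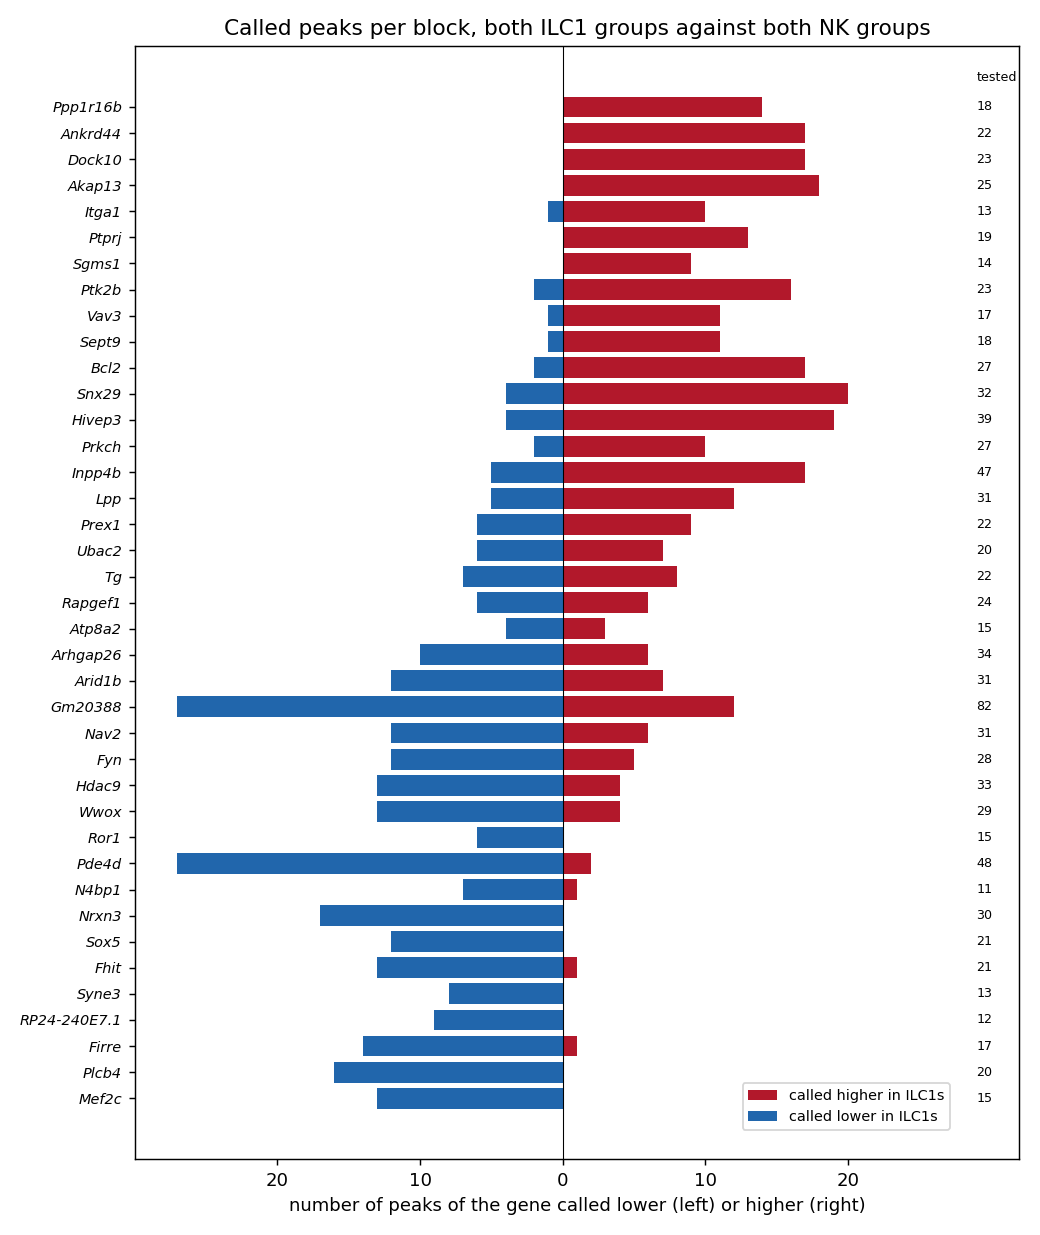
Numbers of peaks called more open (right) and less open (left) in both ILC1 groups than in both NK groups, for 39 named genes, 1 bar per gene, edgeR adjusted p below 0.05. Ankrd44 has 17 higher peaks and no lower peak, Mef2c 13 lower and no higher peak, and Rapgef1 has 6 of each.

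The blocks of Ankrd44, Itga1 and Sept9 were more open in ILC1 over most of their length. Here and below, single peaks given by position were picked for the smallest p of their gene in their direction. Libraries that do not overlap at such a peak follow in part from that choice and are no separate support. Ankrd44, a regulatory subunit of protein phosphatase 6, had 17 of 22 peaks called higher and none lower. Its summed peaks had 367 and 394 CPM in liver NK, 444 and 531 in liver ILC1, 386 and 369.7 in spleen NK and 652 and 668 in salivary gland ILC1. Every ILC1 library lay above every NK library, and the log2 difference was 0.58 ± 0.08 (SE, 4 libraries a side, edgeR adjusted p = 3.8e-08). The peak with the smallest p (chr1:54901121-54902312, intron) had 8.48 and 7.40 CPM in liver NK, 12.6 and 19.8 in liver ILC1, 10.8 and 7.13 in spleen NK and 36.7 and 33.4 in salivary gland ILC1, a log2 fold change of 1.50 ± 0.16. Ankrd44 RNA was not called: the difference was -0.30 ± 0.33 (edgeR adjusted p = 0.77). In the liver pair alone the sum rose by 0.36, a call that was lost without liver NK 1 or liver ILC1 2 (0.19 to 0.31).

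Itga1, the collagen-binding integrin subunit CD49a, had 10 of 13 peaks called higher and 1 lower. CD49a was a gate of the ILC1 sort by the design text, so this difference is not independent of how the cells were chosen. An intronic peak (chr13:115096737-115097501) had 5.87 and 5.31 CPM in liver NK, 17.6 and 24.1 in liver ILC1, 8.51 and 6.54 in spleen NK and 33.7 and 29.6 in salivary gland ILC1, a log2 fold change of 1.98 ± 0.16 (edgeR adjusted p = 8.1e-32). The groups did not overlap. Summed over the block the difference was 0.93 ± 0.09, and in the liver pair 0.51 ± 0.13, the latter not called without liver ILC1 2 (0.32). Itga1 RNA was 0.0188, 16.0, 8.48 and 16.8 CPM in NK 1, 4, 5 and 6, and the 11 other libraries had a lowest value of 57.0, a median of 333 and a highest of 559 CPM. The ranges did not overlap, and the log2 difference was 4.85 ± 1.02. A peak assigned to Itga1 and labelled promoter holds the start of Pelo, the gene nested there, and its log2 fold change was 0.30.

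Sept9, which encodes a septin of the cytoskeleton, had 11 of 18 peaks called higher and 1 lower, and its summed peaks had 378 and 391 CPM in liver NK, 504 and 606 in liver ILC1, 365 and 368 in spleen NK and 404 and 472 in salivary gland ILC1. Both liver ILC1 libraries stood above all others, and the pooled ILC1 minus NK difference was 0.39 ± 0.08 on the log2 scale. An intronic peak (chr11:117299484-117300768) had 7.31 and 6.27 CPM in liver NK, 20.3 and 19.9 in liver ILC1, 5.57 and 6.93 in spleen NK and 13.8 and 10.99 in salivary gland ILC1, with no overlap of ILC1 and NK. Against liver ILC1, salivary gland ILC1 had 9 peaks called lower and 0 higher.

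Blocks of the same direction were those of Tgfbr2, Ptprj and Stat4. Tgfbr2, a receptor subunit for TGF-beta, had 12 of 13 peaks called higher and none lower. Its leading peak (chr9:116122037-116123784, intron) had 18.01 and 18.8 CPM in liver NK, 29.6 and 36.9 in liver ILC1, 20.4 and 18.5 in spleen NK and 68.6 and 72.5 in salivary gland ILC1, so all ILC1 libraries were above all NK libraries and salivary gland was highest. Ptprj, the receptor tyrosine phosphatase CD148, had 13 of 19 peaks higher, and its leading peak (chr2:90495949-90497060, intron) had 8.88 and 9.01 CPM in liver NK, 22.3 and 28.4 in liver ILC1, 10.1 and 6.93 in spleen NK and 54.3 and 56.7 in salivary gland ILC1. Stat4, the transcription factor downstream of interleukin-12, had 12 of 17 peaks higher and 1 lower. The Stat4 peak with the smallest p (chr1:52076181-52077178, labelled promoter) had 7.57 and 4.83 CPM in liver NK, 18.4 and 18.4 in liver ILC1, 4.42 and 4.200 in spleen NK and 20.7 and 28.9 in salivary gland ILC1, a log2 fold change of 2.04 ± 0.18. The summed log2 differences were 0.73 for Tgfbr2, 0.83 for Ptprj and 0.52 for Stat4.

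Other blocks without a single lower call were those of Akap13, an anchor of protein kinase A (18 of 25 peaks higher), Dock10, an exchange factor for Cdc42 (17 of 23), Ppp1r16b, a subunit of protein phosphatase 1 (14 of 18), the kinase gene Tec (11 of 17), the actin regulator Evl (9 of 12) and the sphingomyelin synthase gene Sgms1 (9 of 14). Bcl2, which restrains cell death, had 17 peaks higher and 2 lower of 27. Akap13 differed by organ: a peak labelled promoter by the authors (chr7:75670283-75671310) had 6.27 and 4.99 CPM in liver NK, 6.13 and 4.97 in liver ILC1, 1.80 and 2.83 in spleen NK and 43.7 and 42.0 in salivary gland ILC1. It lies far from the Akap13 start window at chr7:75455284-75455533. Only the 2 salivary gland libraries were high there, and the liver pair did not separate. Sgms1 went the other way, with 10 peaks lower and 0 higher in salivary gland than in liver ILC1. The plot of 8 single peaks sets such library patterns next to each other.

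**Figure D2:**
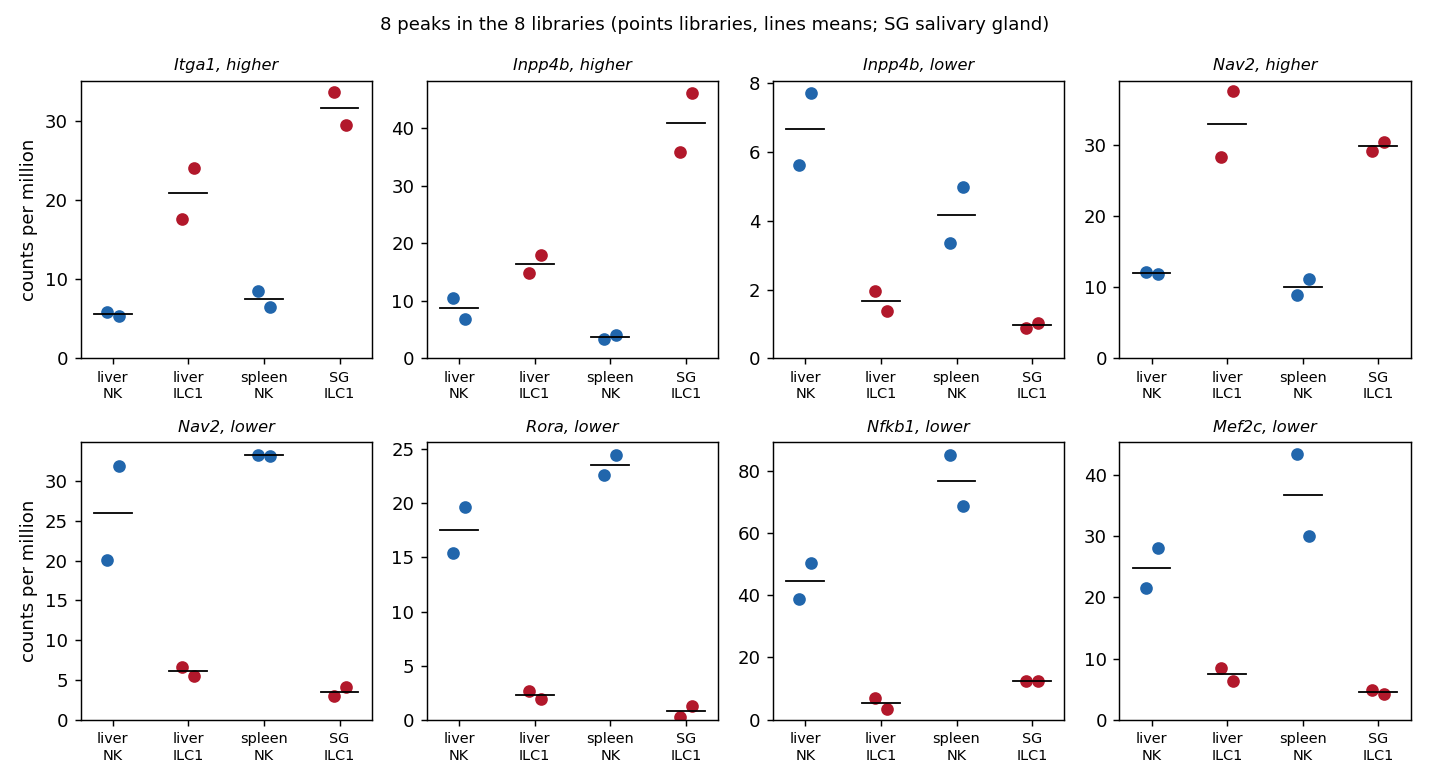
Peak level (CPM, y axis) in each of the 8 ATAC-seq libraries for 8 peaks of 6 named genes, 1 panel per peak, with a point per library and a line at each population's mean. The Itga1 peak is between 17.6 and 33.7 CPM in ILC1 and between 5.31 and 8.51 CPM in NK, and the Rora peak is at 1.32 CPM or less in salivary gland ILC1 against 15.4 CPM or more in NK.

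Blocks that were less open in ILC1 over most of their length were led by Mef2c, a MADS-box transcription factor. It had 13 of 15 peaks called lower and none higher, and its summed log2 difference was -1.20 ± 0.09 (edgeR adjusted p = 1.4e-14). An intronic Mef2c peak (chr13:83608930-83609952) had 21.5 and 28.1 CPM in liver NK, 8.53 and 6.34 in liver ILC1, 43.4 and 30.0 in spleen NK and 4.93 and 4.16 in salivary gland ILC1. The ILC1 and NK libraries did not overlap. Mef2c RNA was called lower as well. It was 41.9, 63.2, 53.1 and 73.1 CPM in NK 1, 4, 5 and 6, and the 11 other libraries, all below these, had a lowest value of 3.37, a median of 10.5 and a highest of 25.5 CPM, a log2 difference of -2.44 ± 0.35.

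Plcb4, a phospholipase C, had 16 of 20 peaks lower and none higher, with a peak (chr2:135811116-135812148, labelled promoter) at 28.98 and 19.3 CPM in liver NK, 15.9 and 15.7 in liver ILC1, 44.9 and 44.7 in spleen NK and 5.13 and 3.95 in salivary gland ILC1. The low values were deepest in salivary gland, and the sum differed by -0.43 in the liver pair, not called without liver NK 1 (-0.42). Syne3, which links the nuclear envelope to the cytoskeleton, had 8 of 13 peaks lower and none higher. Its leading peak (chr12:104995864-104996615, intron) had 33.0 and 49.1 CPM in liver NK, 4.94 and 4.49 in liver ILC1, 67.7 and 70.9 in spleen NK and 9.31 and 12.1 in salivary gland ILC1, and its RNA differed by -2.57 ± 0.49. Rasa3, a GTPase-activating protein for Ras and Rap, had 9 of 14 peaks lower and 1 higher with an RNA log2 difference of -2.27 ± 0.25. N4bp1, an endoribonuclease, had 7 of 11 tested peaks lower and 1 higher, with an RNA log2 difference of -1.47 ± 0.18. Without liver NK 2 the liver sum of Rasa3 was not called (-0.31).

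A second kind of lower block lay in very long genes with little RNA in these cells. Nrxn3, a synaptic adhesion gene, had 17 of 30 peaks lower and none higher. An intronic Nrxn3 peak (chr12:89742116-89743266) had 36.3 and 34.9 CPM in liver NK, 9.57 and 7.41 in liver ILC1, 54.9 and 40.8 in spleen NK and 13.1 and 14.0 in salivary gland ILC1, with all NK libraries above all ILC1 libraries. Pde4d, a cyclic AMP phosphodiesterase, had 27 lower and 2 higher of 48. Sox5 had 12 lower of 21, Fhit 13 lower and 1 higher of 21, and Ror1 6 lower of 15. The median peak of these 5 blocks had 7.68 to 13.0 CPM, in the range where fold changes moved with peak height, and the part of that trend in them was not tested. None of their RNA differences was called (edgeR adjusted p from 0.26 to 0.84). The log2 values were -2.22 for Pde4d, -1.99 for Sox5, -1.36 for Fhit, -1.37 for Ror1 and 1.46 for Nrxn3, all at low levels. Pde4d RNA was 3.17 to 4.53 CPM in NK and 0 to 2.48 CPM in the other libraries, without overlap. Firre, a long noncoding RNA gene on the X chromosome, had 14 lower and 1 higher of 17. The liver sums of Fhit and Firre were not called without liver NK 2 (-0.39 each).

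Other blocks held called peaks of both directions, laid out in order along the gene. Inpp4b, a phosphatase of phosphoinositides, had 17 peaks higher and 5 lower of 47. Its called peaks switched direction once along the gene: peaks from 525 kb after the first peak onwards were lower and those before it higher. A peak in the first stretch (chr8:81776287-81777249, intron) had 10.4 and 6.92 CPM in liver NK, 14.8 and 18.04 in liver ILC1, 3.36 and 4.10 in spleen NK and 35.9 and 46.1 in salivary gland ILC1, and 1 in the last stretch (chr8:82065228-82065837, intron) had 5.61 and 7.72 CPM in liver NK, 1.94 and 1.37 in liver ILC1, 3.36 and 4.98 in spleen NK and 0.889 and 1.03 in salivary gland ILC1. In each of them the ILC1 and NK libraries did not overlap. The sum rose by 0.45 over all 4 groups but was 0.02 ± 0.11 in the liver pair, where 9 peaks were higher and 4 lower. Inpp4b RNA, measured in liver, was 0.919, 3.53, 6.41 and 1.74 CPM in NK 1, 4, 5 and 6. The 11 other libraries, all above these, had a lowest value of 39.6, a median of 324 and a highest of 452 CPM.

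Rapgef1, an exchange factor for Rap1, split evenly with 6 peaks higher and 6 lower of 24, and its sum did not differ (0.09 ± 0.08, edgeR adjusted p = 0.4). An intronic peak (chr2:29629168-29629971) had 11.1 and 7.88 CPM in liver NK, 16.6 and 15.8 in liver ILC1, 6.96 and 5.27 in spleen NK and 21.3 and 26.1 in salivary gland ILC1, whereas another (chr2:29690911-29691828) had 21.4 and 20.1 CPM in liver NK, 4.34 and 3.12 in liver ILC1, 23.7 and 25.2 in spleen NK and 11.6 and 16.8 in salivary gland ILC1. Both, picked for the smallest p in their direction, had ILC1 and NK libraries without overlap, in opposite directions. Fyn, a Src family kinase, had 5 higher and 12 lower of 28, 11 of the lower ones in an unbroken run of called peaks. An exonic Fyn peak (chr10:39564260-39565248) had 5.48 and 4.83 CPM in liver NK, 17.9 and 16.6 in liver ILC1, 2.37 and 1.76 in spleen NK and 18.7 and 18.2 in salivary gland ILC1. A Fyn peak labelled promoter (chr10:39534989-39535895) had 20.6 and 28.8 CPM in liver NK, 4.49 and 2.44 in liver ILC1, 46.2 and 37.3 in spleen NK and 6.50 and 6.59 in salivary gland ILC1. The RNA log2 difference of Fyn was -1.36 ± 0.14, and its liver sum (-0.43) was not called without liver NK 2 (-0.32).

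Nav2, a cytoskeletal gene, had 6 peaks higher and 12 lower of 31, and its sum differed by -0.09 ± 0.07 (edgeR adjusted p = 0.34). A higher peak (chr7:49202606-49203596, intron) had 12.1 and 11.9 CPM in liver NK, 28.3 and 37.5 in liver ILC1, 8.84 and 11.1 in spleen NK and 29.1 and 30.4 in salivary gland ILC1, and a lower peak (chr7:48996667-48997583, intron) had 20.1 and 31.9 CPM in liver NK, 6.58 and 5.56 in liver ILC1, 33.3 and 33.1 in spleen NK and 2.94 and 4.08 in salivary gland ILC1. Nav2 RNA was nonetheless called higher, at 0.225, 0.163, 0.827 and 0.793 CPM in NK 1, 4, 5 and 6 and a lowest value of 5.44, a median of 30.9 and a highest of 40.8 CPM in the 11 other libraries, with no overlap. The plot of 6 blocks along their length shows the long lower stretch of Fyn and the single switch of Inpp4b.

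**Figure D3:**
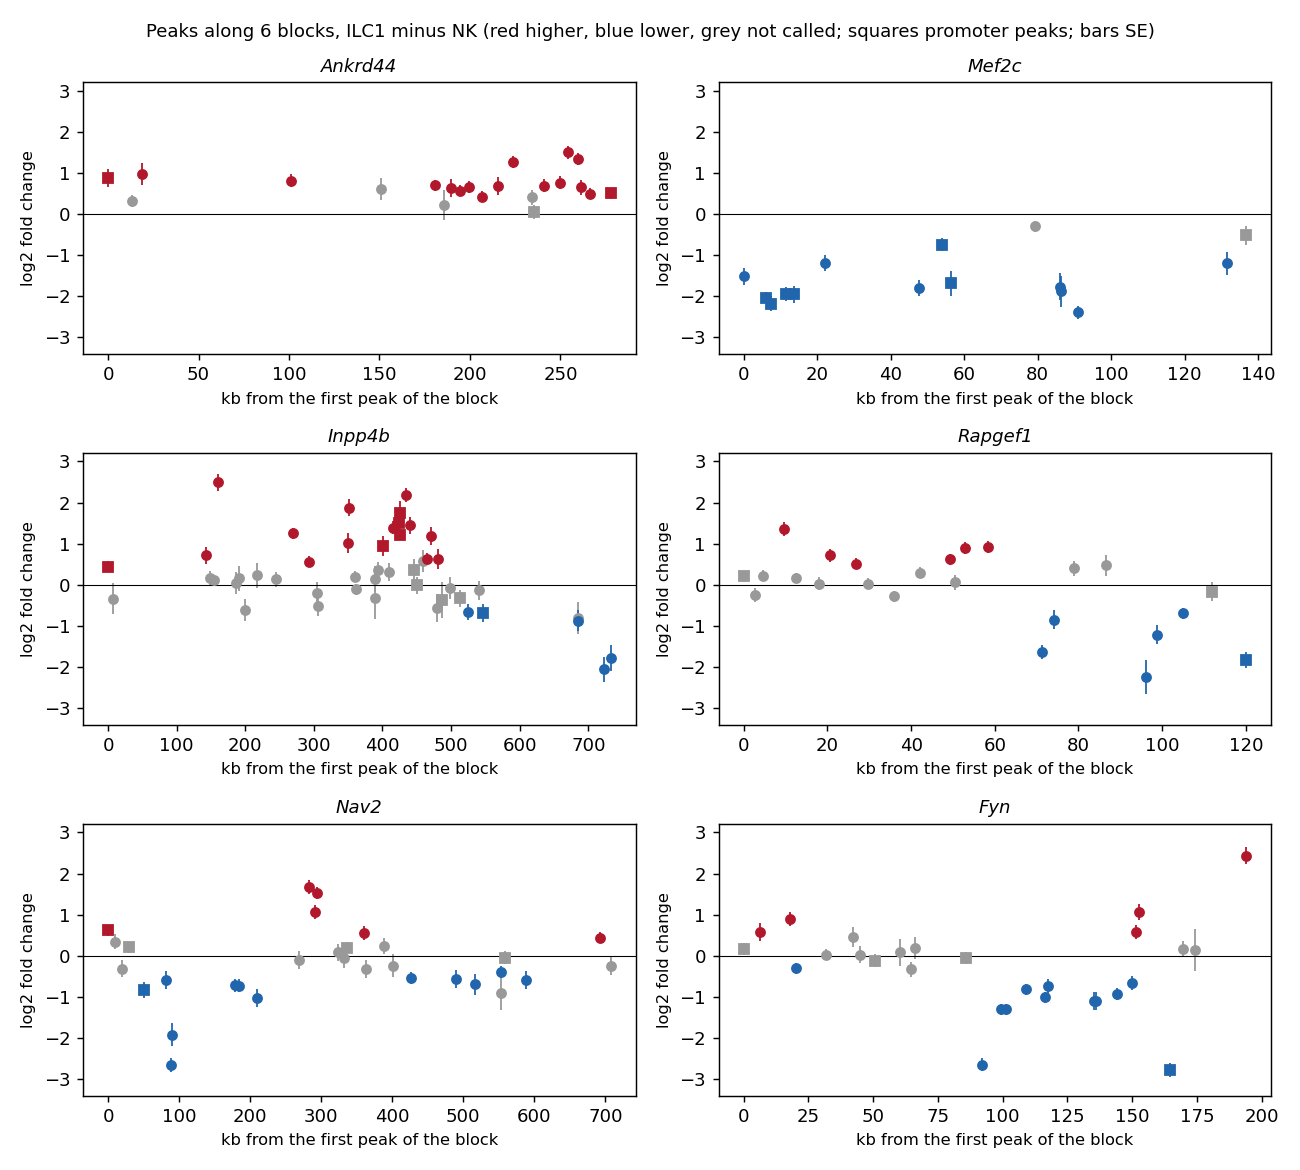
Log2 fold change of each peak, both ILC1 groups against both NK groups, along 6 gene blocks, with distance from the first peak in kb on the x axis, bars for standard errors and squares for peaks labelled promoter. Called peaks of Ankrd44 all lie above 0, those of Mef2c all lie below 0, and Inpp4b, Rapgef1, Nav2 and Fyn have called peaks on both sides.

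Several transcription factor genes had divided blocks too. Rora, a nuclear receptor, had 2 peaks higher and 7 lower of 19, and in the liver pair 5 higher and 1 lower. An intronic Rora peak (chr9:69121051-69121878) had 15.4 and 19.6 CPM in liver NK, 2.69 and 1.95 in liver ILC1, 22.6 and 24.4 in spleen NK and 0.274 and 1.32 in salivary gland ILC1, a log2 fold change of -3.82 ± 0.22. That peak was almost closed in salivary gland ILC1 and open in all NK libraries. Rora RNA differed by 1.98 ± 0.58 (edgeR adjusted p = 0.062), and with the mouse as a block by 2.06 (edgeR adjusted p = 0.0013).

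Nfkb1, which encodes an NF-kB subunit, had 6 peaks higher and 3 lower of 14. An exonic peak of Nfkb1 (chr3:135585228-135586045) had 38.9 and 50.3 CPM in liver NK, 6.88 and 3.61 in liver ILC1, 85.0 and 68.5 in spleen NK and 12.5 and 12.6 in salivary gland ILC1, and another (chr3:135661781-135663009) had 7.96 and 8.36 CPM in liver NK, 13.9 and 15.3 in liver ILC1, 13.7 and 9.18 in spleen NK and 36.9 and 37.6 in salivary gland ILC1. The lower peak was the brighter of the pair in NK cells, and the summed difference was -0.23 ± 0.08 although more peaks were higher. That call was lost without any 1 of 4 libraries (liver NK 2, spleen NK 1, salivary gland ILC1 1 or 2, -0.23 to -0.16). The summed Nfkb1 peaks had 297 and 329 CPM in liver NK and 201 and 198 in liver ILC1. They had 381 and 317 CPM in spleen NK and 398 and 398 in salivary gland ILC1, so only the liver pair had the lower sum in ILC1. Runx1 had 5 peaks higher and 9 lower of 22, and Tox, which supports NK cell development, 3 higher and 7 lower of 19. The Tox sum was -0.25 ± 0.08, not called without spleen NK 1 or salivary gland ILC1 1 (-0.22 each), while Tox RNA was higher, at 1.68 ± 0.23. Jak1, a kinase of cytokine receptors, had 3 higher and 5 lower of 21 with an RNA difference of -1.21 ± 0.13.

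Peaks of a block that lay near each other shared a direction more often. Among pairs of called member peaks less than 10 kb apart 82.8% moved the same way, in the comparison of both ILC1 with both NK groups. The share was 74.8% at 10 to 25 kb, 74.7% at 25 to 50 kb, 69.1% at 50 to 100 kb, 61.6% at 100 to 200 kb, 60.0% at 200 to 400 kb and 67.2% beyond. In the liver pair it was 88.5% below 10 kb, 74.7% and 75.6% in the bins from 10 to 50 kb, 68.8% at 50 to 100 kb and 61.2% beyond 400 kb. Genes with 2 to 11 peaks had 83.7% below 10 kb and 69.5% at 50 to 100 kb in the first of these comparisons, then 72.9% at 100 to 200 kb, 80.0% at 200 to 400 kb and 78.6% beyond. Pairs of 1 gene share peaks and libraries, so these shares are descriptions.

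Read in order along the gene, 75.8% of 2735 neighbouring called peaks had the same direction, and the median gene switched direction 2 times. Of 351 genes with 2 or more called peaks 93 had no switch. Of the 258 genes with both directions 74 had a single switch. Runs of 3 or more called peaks in both directions occurred in 40 genes. In 12 of these, picked after their values were seen, a single switch parted the runs: Btbd9, Dok6, Frmd4b, Gse1, Inpp4b, Map3k5, Plekhm3, Rapgef1, Setbp1, Ssbp2, Tgfbr3 and Vgll4. In the liver pair 9 genes had runs of 3 or more in both directions, parted by a single switch in Inpp4b, Lpp and Vgll4. In the plot of direction against distance the shares of the blocks of 12 or more peaks were lower beyond 100 kb than below 50 kb in both comparisons.

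**Figure D4:**
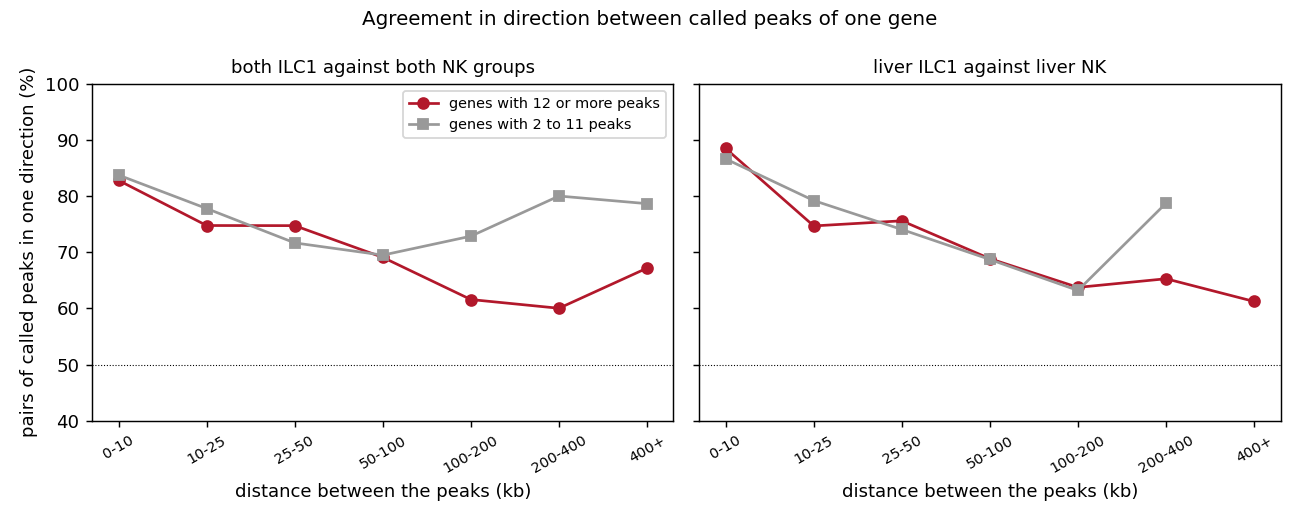
Share of pairs of called peaks of the same gene that have the same direction (percent, y axis) by the distance between them (kb, x axis), for genes with 12 or more peaks and genes with 2 to 11 peaks, in both ILC1 against both NK groups and in the liver pair. Bins with fewer than 20 pairs are not drawn. The share among genes with 12 or more peaks goes from 82.8% below 10 kb to 60.0% at 200 to 400 kb.

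Some blocks were not the property of 1 gene. Gm20388 is a predicted model whose 82 peaks were nearest to 28 protein-coding genes and spread over 4176 kb. Of these, 20 were nearest to Irf8, a transcription factor gene of myeloid and NK cells (chr8:120736358-120756694), at 3.1 to 138.1 kb from it. Of those 2 were higher and 11 lower in ILC1, and in the liver pair 1 higher and 5 lower. The leading peak (chr8:120786460-120787707) had 67.0 and 76.7 CPM in liver NK, 9.72 and 8.58 in liver ILC1, 124 and 107 in spleen NK and 33.0 and 35.5 in salivary gland ILC1, with every NK library above every ILC1 library. Irf8 RNA was 1356 to 3258 CPM in NK and 185 to 417 CPM in the others, a log2 difference of -2.85, called by edgeR. Summed peaks of the 3 of 4 myeloid markers with a peak were 41.1 to 63.5 CPM in ILC1 and 64.7 to 88.0 CPM in NK, and their part in the Irf8 values was not tested.

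Tg, which encodes thyroglobulin and had no called RNA difference (0.15 ± 0.99), held 8 higher and 7 lower of 22 peaks, and 9 of its peaks lay inside Sla, the Src-like adaptor nested in it. Sla RNA differed by 0.50, not called. Ubac2 held 7 higher and 6 lower of 20, and 4 of its peaks lay in the nested receptor genes Gpr18 and Gpr183. RNA of Gpr18 and Gpr183 was higher in ILC1 by 0.94 and 1.67, called, while Ubac2 RNA differed by 0.02 ± 0.23, not called. These blocks thus hold peaks of nested genes under 1 name.

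Peaks over start sites had a lower called share than the other peaks of the blocks, a difference that was not tested. Among all peaks, those labelled promoter and intron stood in the same order, with 33.6% and 50.7% called. Of the member peaks 5568 (94.98%) hold no RefSeq protein-coding start, and of those 53.6% were called with a median absolute log2 fold change of 0.48. The 239 peaks over the gene's own start, in 209 genes, had 39.3% called and a median of 0.25. The 55 peaks over starts of other genes had 21.8% and 0.18. In the liver pair the called shares were 23.3%, 17.2% and 14.5%.

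In the liver pair, where organ is the same, 625 member peaks were higher and 720 lower in ILC1, together 1345 or 22.9%, against 18.7% of all peaks (9.83% higher and 8.85% lower). The member median was -0.03. Without liver NK 2 the calls numbered 896 (451 higher and 445 lower), and without liver ILC1 2 they numbered 685 (215 and 470). Scaling by library totals alone gave 492 higher and 860 lower. That scaling moved the median of all peaks from 0.00 to -0.10 here, from -0.04 to -0.29 for salivary gland against liver ILC1, and from -0.11 to -0.48 for spleen against liver NK. Both directions occurred in 151 genes, 80 were higher only, 106 lower only and 20 had no call. Genes with both directions numbered 96 without liver NK 1, 94 without liver NK 2 and 64 without liver ILC1 2. Block sums were higher in 36 genes and lower in 82, together 33.1%, against 19.8% of all genes (9.80% higher and 9.96% lower), and 69 were called without liver NK 2. These shares of sums are not matched for counts either. The within-gene test called 242 blocks by Simes' method (16.3% of all genes with 2 or more tested peaks) and 298 by the F test (24.5%), with 136 by Simes' method without liver ILC1 2.

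Between salivary gland ILC1 and spleen NK, 2005 member peaks were higher and 1247 lower, 55.5% of the total, against 48.2% of all peaks, with a member median of 0.18 and -0.09 over all peaks. The part of the choice of members, made on peaks of the same libraries, in that lean was not tested. This comparison shares no library with the liver pair. Of 960 member peaks called in both, 855 had the same direction (436 higher, 419 lower) and 105 the opposite one. The 960 peaks were 71.4% of the liver calls and 29.5% of the salivary gland to spleen calls. Over all peaks called in both, 87.0% of 6192 shared a direction, against 89.1% of the members. Log2 fold changes of the pairs had a Pearson correlation of 0.45 over the 5862 member peaks, which share genes and neighbourhoods.

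The ILC1 minus NK difference of block sums was itself compared between the salivary gland to spleen pair and the liver pair, a test added after the data were seen. It was called for 150 of 357 genes, or 42.0%, against 25.2% of all genes, shares that are not matched for the counts in a sum. In 137 of the 150 genes the salivary gland to spleen value was the more positive. Members were chosen by peaks listed for these same libraries, of which those of salivary gland had the highest totals. The part of that choice in the lean was not tested. With scaling that follows peak height 162 genes were called, 124 more positive and 38 less. Tgfbr3, the TGF-beta co-receptor betaglycan, had -0.78 and 0.83 (difference 1.61 ± 0.19, edgeR adjusted p = 8.3e-09) in the liver and salivary gland to spleen pairs. Tgfbr2 had 0.14 and 1.31 (difference 1.17 ± 0.16, edgeR adjusted p = 3.6e-07), and Snx29, a sorting nexin gene, -0.07 and 1.13 (difference 1.20 ± 0.15, edgeR adjusted p = 2.3e-08). Plcb4 went the other way with -0.43 and -1.47 (difference -1.04 ± 0.16, edgeR adjusted p = 5.7e-06), as did Rora with 0.16 and -0.34 (difference -0.50 ± 0.16, edgeR adjusted p = 0.017) and Atp8a2, a phospholipid flippase gene, with 0.35 and -0.16 (difference -0.51 ± 0.17, edgeR adjusted p = 0.02). Organ and the make-up of the pair cannot be told apart here.

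Single peaks of these genes are given by library. An exonic Tgfbr3 peak (chr5:107176726-107178275) had 21.8 and 28.0 CPM in liver NK, 14.5 and 10.5 in liver ILC1, 29.8 and 29.2 in spleen NK and 62.7 and 65.8 in salivary gland ILC1. Liver ILC1 was below liver NK there (log2 -1.01), while salivary gland ILC1 was above spleen NK (log2 1.12). An exonic Snx29 peak (chr16:11399604-11400960) had 15.7 and 12.9 CPM in liver NK, 18.2 and 15.2 in liver ILC1, 7.12 and 7.33 in spleen NK and 80.6 and 79.6 in salivary gland ILC1, high in salivary gland alone. An intronic Atp8a2 peak (chr14:60072237-60073222) had 9.53 and 8.69 CPM in liver NK, 38.3 and 50.8 in liver ILC1, 8.27 and 7.52 in spleen NK and 22.5 and 23.2 in salivary gland ILC1, highest in liver ILC1. The Atp8a2 liver sum (0.35) was not called without liver NK 1, liver NK 2 or liver ILC1 2 (0.24 to 0.37).

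Within a cell type, organs differed too. Salivary gland ILC1 had 1704 member peaks higher and 1213 lower than liver ILC1, together 49.8%, against 48.7% of all peaks, and scaling by library totals turned this to 1174 and 1615. Spleen NK had 728 higher and 1155 lower than liver NK, together 32.1%, against 40.6% of all peaks. Library totals gave 201 and 2333, and scaling that follows peak height gave 199 and 642. Without liver NK 1 there were 767 calls and without spleen NK 1 there were 820. The majority direction between the ILC1 groups therefore depended on the scaling, whereas between the NK groups lower calls were more numerous than higher ones under each scaling tried. Hivep3, a zinc finger gene, had 3 peaks higher and 23 lower of 39 in spleen NK, and Hdac9, a histone deacetylase gene, 1 and 11 of 33. In salivary gland against liver ILC1 Gm20388 had 13 higher and 29 lower, and Pde4d 12 and 14. Both directions occurred in 275 genes between the ILC1 groups and in 272 between the NK groups, and called pairs shared a direction in 65.4% and 61.9%, against 71.3% for salivary gland ILC1 with spleen NK and 71.6% in the liver pair. The count between the NK groups changed with the processing: it was 99 genes (72.3% of pairs alike) with scaling that follows peak height, 142 (88.2%) with library totals, 102 without liver NK 1 and 131 without spleen NK 1.

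RNA of the same genes was measured in liver, in other libraries. Of 326 member genes with a tested RNA row, 32 were higher and 34 lower in the mean of DP, FMSP and DN cells than in NK cells, together 66 or 20.2%, against 5.92% of all genes (2.90% higher and 3.02% lower). With the mouse as a block, which the labels support because several populations came from the same animal, 66 were higher and 53 lower, 119 in all. Across these 326 genes the summed chromatin difference of both ILC1 from both NK groups and the RNA difference had a Pearson correlation of 0.40 and a Spearman correlation of 0.47, against a Pearson correlation of 0.15 over 11391 other genes. Genes are not independent replicates. Sept9 has no RNA row under its name, since 26 gene symbols of that table had been turned into dates.

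Set against the chromatin sum of both ILC1 with both NK groups, 27 genes were called higher in chromatin and RNA and 17 lower in each. In 95 genes the sum rose and in 47 it fell without an RNA call. All counts of this paragraph use the RNA fit without the mouse as a block. With the block 119 RNA differences were called in place of 66, and the counts were not repeated with it. A gene without an RNA call here can therefore have one in the paired fit. In 2 genes, Iqgap1 and Pacsin2, the sum rose and RNA fell, and in Tox and St6galnac3 the sum fell and RNA rose. RNA rose without a called sum in Nav2, Atp8a2 and Thada and fell without one in 15 genes. In 118 genes neither was called. Nav2 and Rapgef1 are examples of called RNA beside peaks of both directions and a sum near 0. The Rapgef1 RNA difference was -0.85 ± 0.19, and it was not called without NK 1 (-0.59). RNA came from liver alone, whereas the chromatin sum of this paragraph also holds spleen and salivary gland. Set against the liver-pair sum, 14 genes were called higher in chromatin and RNA and 20 lower in each. The liver sum rose while RNA fell in 0 genes, and it fell while RNA rose in 1. RNA rose without a called liver sum in 17 genes and fell without one in 14. Atp8a2 did have a called liver sum, given above.

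Atp8a2 RNA was listed at 0 to 0.539 CPM in the 4 NK libraries and at 59.0 to 209.7 CPM in the others, so its fitted difference rests on few NK counts. Bach2, a repressor, had an RNA log2 difference of -1.58 ± 0.22, called lower, beside 6 peaks higher and 4 lower of 24. Tgfbr2 RNA differed by 0.04 ± 0.23, not called, beside 12 of 13 peaks higher in both ILC1 against both NK groups. In liver, where RNA was measured, the Tgfbr2 sum was not called, with 215 and 232 CPM in NK and 241 and 253 in ILC1. It had 181 and 181 CPM in spleen NK and 433 and 466 in salivary gland ILC1. Ptprj RNA differed by 1.36 ± 0.34, a call lost without NK 1, NK 4 or NK 6 (1.23 to 1.44). With the mouse as a block, RNA of Akap13 (0.73, edgeR adjusted p = 0.0014), Dock10 (0.75, 0.0021) and Bcl2 (0.88, 6.3e-05) became called as higher and RNA of Nfkb1 (-0.49, 0.011) and Syk (-0.93, 0.008) as lower.

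**Figure D5:**
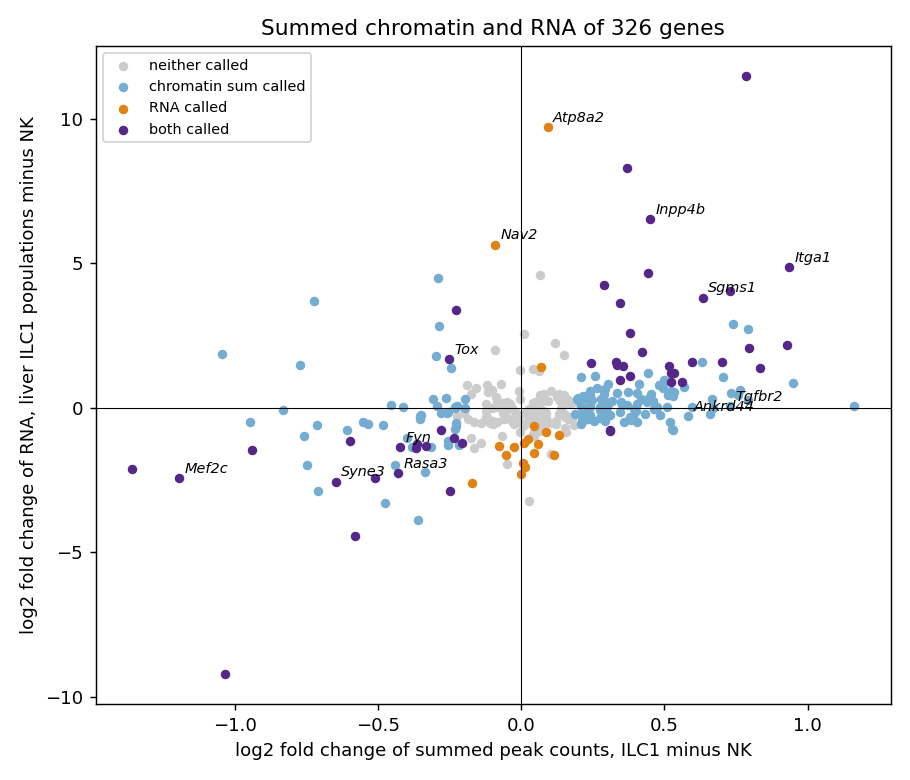
Log2 difference of summed peak counts (x axis, both ILC1 groups against both NK groups) and of RNA (y axis, mean of DP, FMSP and DN against NK cells) for 326 genes with 12 or more peaks, 1 point per gene. The Pearson correlation is 0.40, and colours mark which of chromatin sum and RNA was called, with neither called in 118 genes. RNA values are from the fit without the mouse as a block.

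Role lists place the blocks by function, counted in both ILC1 groups against both NK groups beside an all-peak median of -0.01. Over all members 1784 of 5862 peaks were higher and 1306 lower, together 52.7%, and over all peaks 21.0% and 23.1%. Of 63 kinase and phosphatase genes 20 were members, with 131 of 369 peaks higher and 59 lower (together 51.5%) and a median of 0.19. Of 36 chromatin regulators 10 were members, with 67 of 207 peaks higher and 42 lower (52.7%) and a median of 0.12, so both lists had a called share near that of all member peaks. The 4 members among 17 TGF-beta pathway genes, Tgfbr2, Tgfbr3, Smad3 and Ski, had 23 of 53 peaks higher and 6 lower. The 7 members among 22 Runx, Ets and Ikaros factors had 23 of 117 higher and 19 lower, and the 4 among 29 NK and ILC1 transcription factors (Irf2, Tox, Rora and Foxp1) had 10 of 70 higher and 18 lower. Bach2, Nfatc1 and Nfkb1, of 24 AP-1, Maf and Bach factors and relatives, had 16 of 54 higher and 12 lower. Among 25 killer receptor genes and 21 granule and death ligand genes none had 12 peaks.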

How the data were processed

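Chromatin was measured in 8 ATAC-seq libraries and RNA in 15 liver libraries. The authors deposited raw read counts per peak, with a gene and a region type for each peak, and, for RNA, estimated counts per gene, as deposited by the authors without normalization. The submitters' processing notes name Salmon 1.6, Bowtie2, SAMtools, MACS2 and DESeq2 and the build mm10, without saying which step each served. Here expected counts were rounded, peaks and genes were filtered with a minimum count of 10, scaled by trimmed means (TMM) and tested with edgeR 4.0.16 quasi-likelihood fits (limma 3.58.1, R 4.3.3) over all libraries of the assay, with group means only, leaving 4 residual degrees of freedom for ATAC-seq and 11 for RNA. The prior degrees of freedom were infinite in 96.8% of peaks. Peaks with no gene stayed in the fit. Calls are Benjamini-Hochberg adjusted p below 0.05 over all features. Counts were also summed per gene, and peaks were tested against the other peaks of their gene with diffSpliceDGE. No sample column was left unused (0).

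The members and lists were chosen with earlier results of these data known. Named are the 3 marker genes, the 6 longest blocks, up to 8 genes with most peaks called in each direction in the liver pair and in both ILC1 against both NK groups, up to 8 with most calls in the rarer direction, up to 4 with most calls in each comparison between organs, and listed members. The peaks given have the smallest p in their direction, or cover a RefSeq start. RNA-seq total counts were 51641248 to 73309063, and the mouse numbers in the labels pair RNA samples of the same animal. Alternatives were size factors, library totals, scaling by peak height (a loess curve per library), no filter, DESeq2 1.42.0, blocks and leaving out each library. One gene list is not reported here. Simulated counts with known changes were used to test the scripts. Sequences of peaks were not used here for want of a genome.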

Additional observations from a re-analysis of the deposited data

Results flagged for a closer look

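For 38 named genes the log2 difference of summed peaks between ILC1 and NK was itself different between the salivary gland to spleen pair and the liver pair, by the edgeR test of that difference. The values given are the salivary gland to spleen difference minus the liver difference. It was negative for Plcb4 (-1.04), Atp8a2 (-0.51), Rora (-0.50) and Firre (-0.41). The positive values above 0.80 were those of Tgfbr3 (1.61), Snx29 (1.20), Tgfbr2 (1.17), Ror1 (0.97), Hdac9 (0.93), Itga1 (0.85), Inpp4b (0.85), Nfkb1 (0.84), Ptprj (0.83) and Lpp (0.80). Values between 0.60 and 0.80 were those of Ptk2b (0.79), Arid5b (0.72), Dock2 (0.72), Akap13 (0.71), Hivep3 (0.70), Nrxn3 (0.69), Dock10 (0.69), Dnmt3a (0.66), Sipa1l1 (0.63), Rapgef1 (0.62) and Pip4k2a (0.62). The smaller ones were those of Pde4d (0.55), Prkch (0.52), Zbtb20 (0.52), Chd7 (0.52), Syne3 (0.50), Runx2 (0.50), Stat4 (0.49), Tox (0.49), Iqgap1 (0.44), Ankrd44 (0.44), N4bp1 (0.44), Mbnl1 (0.43) and Bach2 (0.43). Organ and the make-up of the pairs cannot be told apart.

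In liver RNA a single library stood apart from the 3 others of its population for some named genes, by Dixon's test at its 95% value, which chance passes in about 1 of 20 groups. The test was run in 78 groups of 4 libraries for 26 genes, and 11 values passed. In NK 1 the values of Evl (491.7 CPM), Rapgef1 (202.3 CPM) and Syne3 (245.0 CPM) were high and that of Vav3 (19.0 CPM) low. In FMSP 3 the values of Cyth1 (166.9 CPM), Rasa3 (179.2 CPM) and Syne3 (41.4 CPM) were high and that of Mef2c (9.06 CPM) low. Runx2 was low in FMSP 4 (20.7 CPM), Arhgef3 low in DP 6 (181.7 CPM) and Cyth1 high in DP 5 (110.8 CPM). RNA calls that changed without NK 1 were those of Arhgef3, Ptprj, Rapgef1 and Vav3. For some genes every library of mice 1 to 3 stood below every library of mice 4 to 6. Mbnl1 RNA was 148 to 362 CPM in mice 1 to 3 and 942 to 1463 in mice 4 to 6. Bcl2 had 93.5 to 226 and 327 to 692 CPM, and Zbtb20 12.1 to 32.4 and 124 to 222 CPM. These genes were picked after their values were seen, and others, such as Chd7, overlapped. Member RNA calls numbered 66 over all mice, 119 with the mouse as a block and 118 in mice 4 to 6 only. Over all genes 5.92%, 12.7% and 13.2% were called in these fits. The reason for the larger counts was not tested.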

How the results depend on the processing

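Counts are of member peaks or genes called by edgeR. Spleen against liver NK fell from 1883 to 841 with scaling that follows peak height, chosen after seeing the data. RNA calls rose from 66 to 119 with the mouse as a replicate block and to 118 in mice 4 to 6 only, and DESeq2 called 94. Leaving out 1 library at a time, which leaves a lone library assumed to vary like the other groups, gave 685 to 1487 peaks, 69 to 144 block sums and 136 to 242 within-gene calls in the liver pair, and 767 to 2054 peaks for spleen against liver NK. The ranges were 2633 to 2999 for both ILC1 against both NK, 171 to 219 for its sums, 341 to 347 within genes, 2564 to 3386 for salivary gland against spleen, 2126 to 2905 for salivary gland against liver and 54 to 79 for RNA. DESeq2 called 1024 liver, 2926 salivary gland to spleen, 2740 ILC1 to NK, 2641 salivary gland to liver and 1419 spleen to liver peaks.

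The labels do not say whether ATAC-seq libraries of 1 replicate number share an animal, and deviations of same-numbered libraries correlated at -0.120 to 0.179 over 12 pairs, so the block was kept as an alternative. With the replicate block 1366 liver, 3283 salivary gland to spleen, 3133 ILC1 to NK, 2961 salivary gland to liver and 1935 spleen to liver peaks were called, and the liver sums of Bcl2 (0.28, edgeR adjusted p = 0.039), Tec (0.30, 0.044) and Syk (-0.32, 0.044) became called. Taking the median peak in place of the sum gave 219 in place of 223 blocks above 0 for ILC1 against NK and 174 in place of 154 in the liver pair. Over all results and alternatives 4065 values kept their direction and side of the threshold, 104 lost and 96 gained a call, 9 counts moved by over 1.5 times and 0 reversed; the cause was not tested. With 2 libraries a group, depth limits what can be called in low peaks, and 4 residual degrees of freedom rest on a spread shared by all groups.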

Other observations

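The following blocks were chosen after their values were seen, as those with large summed differences between both ILC1 and both NK groups outside the rule for named genes. Nck2, an adaptor that links receptors to the actin cytoskeleton, had 0 higher and 11 lower of 13 peaks and a summed log2 difference of -1.36 ± 0.08, and its RNA log2 difference was -2.14 ± 0.25 (edgeR adjusted p = 7.5e-05). Park2, the parkin ubiquitin ligase gene, had 0 higher and 12 lower of 12 peaks and a summed log2 difference of -0.97 ± 0.09. On the higher side Nsmce2, a SUMO ligase gene of the SMC5/6 complex, had 10 higher and 1 lower of 14 peaks and a summed log2 difference of 1.16 ± 0.09, but only 0.06 in the liver pair and an RNA difference of 0.04 ± 0.21 that was not called. Cables1, a cyclin-dependent kinase partner, had 11 higher and 1 lower of 13 peaks and a summed log2 difference of 0.93 ± 0.08, with an RNA difference of 2.15 ± 0.44 (edgeR adjusted p = 0.0064). Rbpj, the transcription factor of the Notch pathway, had 7 higher and 1 lower of 16 peaks and a summed log2 difference of 0.79 ± 0.08, with an RNA difference of 2.07 ± 0.20 (edgeR adjusted p = 1.2e-05). Litaf had 13 higher and 0 lower of 17 peaks and a summed log2 difference of 0.76 ± 0.08.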
